A study of Rattus norvegicus with 10 samples.

Results

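The genes of the proteasome were followed in the gastrocnemius, the large calf muscle, of rats on mild calorie restriction (CR). Members were taken by name, as the genes whose symbol in the annotation of the array begins with Psma, Psmb, Psmc, Psmd or Psme, and the interferon-induced Psmb8, Psmb9 and Psmb10 were kept apart. There were 38 such genes among the 14217 genes with a probe set of their own, and each was read on its brightest probe set. All 38 were above the signal filter, which 9170 genes passed. They comprised 13 subunits of the 20S core particle, 17 subunits of the 19S regulatory particle, 3 assembly chaperones (Psmd5, Psmd9 and Psmd10) and 3 activator genes (Psme1, Psme2 and Psme4). The other 2, Psmc3ip and Psme3ip1, share only the letters: Psmc3ip encodes a factor of meiotic recombination, and Psme3ip1 a partner of the activator subunit Psme3. The catalytic subunit gene Psmb6 and the activator gene Psme3 were measured only by probe sets shared with other genes and were not members.

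The proteasome is the main protease for proteins that carry ubiquitin chains. Its core is a barrel in which outer rings of alpha subunits (Psma) control entry and inner rings of beta subunits (Psmb) hold the catalytic sites. The regulatory particle sits on the end of the barrel, where its ATPases (Psmc) unfold the substrate and its non-ATPase subunits (Psmd) bind ubiquitin and remove it. In skeletal muscle the ubiquitin-proteasome system degrades contractile proteins, and transcripts of its subunits and of muscle ubiquitin ligases are known to increase in atrophy caused by fasting and disease. Whether the much milder restriction used here changed these transcripts, and whether core and regulatory particle differed, was read from the deposited signals.

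Male Wistar rats, 6 weeks old at the start, were given 5, 10, 20 or 30% less food than the recorded intake, or the full intake as controls, for 1 month or 1 week. Muscle was taken after a 16 h fast. RNA of 5 rats was pooled per group and each pool was hybridized to 1 Affymetrix Rat Genome 230 2.0 array, so the 10 groups had 10 arrays, no group had a replicate and the spread between rats cannot be seen. Tests therefore rest on slopes and contrasts over the arrays, whose number limits the precision. In a pooled tissue sample, fewer cells of a type and less RNA per cell cannot be told apart.

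The trimmed mean signal was 86.4 on every 1-month array and 99.6 on every 1-week array, so values of different durations were not on 1 scale. The summed signal of 4 skeletal muscle markers was 24244 to 29607 on restricted arrays at 1 month, against 35533 on the control, and 36091 to 38059 on restricted arrays at 1 week, against 32827 on the control. The sum of 5 slow fibre markers was 3725 to 6402 on restricted arrays at 1 month, against 5228 on the control. At 1 week that sum was 3366 to 8580 on restricted arrays, against 1620 on the control. Every 1-week ratio shares this control, which was low in slow fibre signal. The actin 3' to 5' ratio, a sign of RNA integrity, was 1.37 to 1.61 on restricted arrays at 1 month, against 1.44 on the control, and 1.24 to 1.56 on restricted arrays at 1 week, against 1.70 on the control. The part of these differences in the results was not tested. The titles and diet labels place each array, but the free-text descriptions of the 1-week 5% CR array and the 1-week control state the opposite feeding, and all fits were repeated with both arrays exchanged.

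Proteasome genes are known targets of NFE2L1, a factor that binds antioxidant response elements, and of NF-Y, which binds CCAAT boxes. RefSeq promoters (GRCr8) were at hand for 34 of the 38 members, and the 250 bases before the start were searched on both strands. The element TGACNNNGC stood in 6 of the 34 windows, or 17.6%, against 10.2% of 27457 promoters. It stood in 3 of 12 core promoters (25%) and in 1 of 14 regulatory particle promoters (7.14%). CCAAT stood in 18 of the 34 (52.9%), against 34.3% of all promoters, with 9 of 12 in the core (75%) and 5 of 14 in the regulatory particle (35.7%). These matches are a description of letters and not of binding. The 6 stretches that hold the TGACNNNGC element are shown because they include 2 core genes of the catalytic beta rings, an assembly chaperone with 2 elements and an activator gene. Each is written 5′ to 3′ on the strand of its gene, with the element in capitals.
Psma3: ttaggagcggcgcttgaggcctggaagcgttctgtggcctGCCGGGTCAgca
Psmb2: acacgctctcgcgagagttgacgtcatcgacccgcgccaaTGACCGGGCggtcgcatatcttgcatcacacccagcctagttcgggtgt
Psmb5: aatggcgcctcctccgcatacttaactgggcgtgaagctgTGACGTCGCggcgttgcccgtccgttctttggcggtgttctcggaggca
Psmd1: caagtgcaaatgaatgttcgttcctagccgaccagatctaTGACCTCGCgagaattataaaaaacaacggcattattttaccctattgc
Psmd9: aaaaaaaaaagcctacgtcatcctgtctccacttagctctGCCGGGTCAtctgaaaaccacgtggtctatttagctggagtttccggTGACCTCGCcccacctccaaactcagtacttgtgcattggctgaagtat
Psme4: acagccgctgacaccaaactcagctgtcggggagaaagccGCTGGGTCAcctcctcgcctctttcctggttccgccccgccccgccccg
The stretch of Psma3, an alpha subunit, lies at chr6:95219697-95219748 on the plus strand. That of Psmb2, a beta subunit, lies at chr5:144254950-144255038 on the plus strand, and that of Psmb5, the chymotrypsin-like catalytic subunit, at chr15:32047391-32047479 on the minus strand. That of Psmd1, a large scaffold subunit of the regulatory particle, lies at chr9:94157766-94157854 on the plus strand. The stretch of Psmd9 lies at chr12:39018293-39018428 on the minus strand and that of Psme4, which encodes the activator PA200, at chr14:108706548-108706636 on the plus strand. All 6 are upstream of the annotated start of transcription.

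No proteasome gene changed with the level of restriction by the test used, and the slopes were small and mostly positive. The slope of log2 signal per 10 percentage points of restriction, fitted to the 10 arrays with a term for duration (limma), passed an adjusted p of 0.05 for 0 of 38 members. Of the 15521 probe sets tested, 0.941% rose and 1.06% fell. At an unadjusted p under 0.05, 5 members had positive slopes (Psmb1, Psmb3, Psmc2, Psmd4 and Psmd5) and 0 had negative ones, against 1013 and 1209 of all probe sets. The smallest adjusted p was 0.191, for Psmd5.

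Slopes were above 0 for 33 of the 38 members, against 48.3% of all probe sets tested, and their median was 0.028, against −0.0033. Members were bright, with a median signal of 842 against 86.4 for all probe sets tested, and among the 3105 brightest, which held 32 of the members, 56.3% of slopes were above 0 with a median of 0.0072. On the brightest probe sets, all 17 subunits of the regulatory particle and all 6 beta subunits had positive slopes. So did 5 of 7 alpha subunits, with Psma1 at −0.0018 and Psma3 at −0.026. The probe set that Psma3 shares with Psma3l was brighter, with a mean signal of 1619 against 369, and had a slope of 0.025 ± 0.026. The intervals limit what could have been missed: over the 30 subunits of core and regulatory particle, 95% intervals of the slope reached no lower than −0.11 (Psma3) and no higher than 0.14 (Psmd3).

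**Figure D1:**
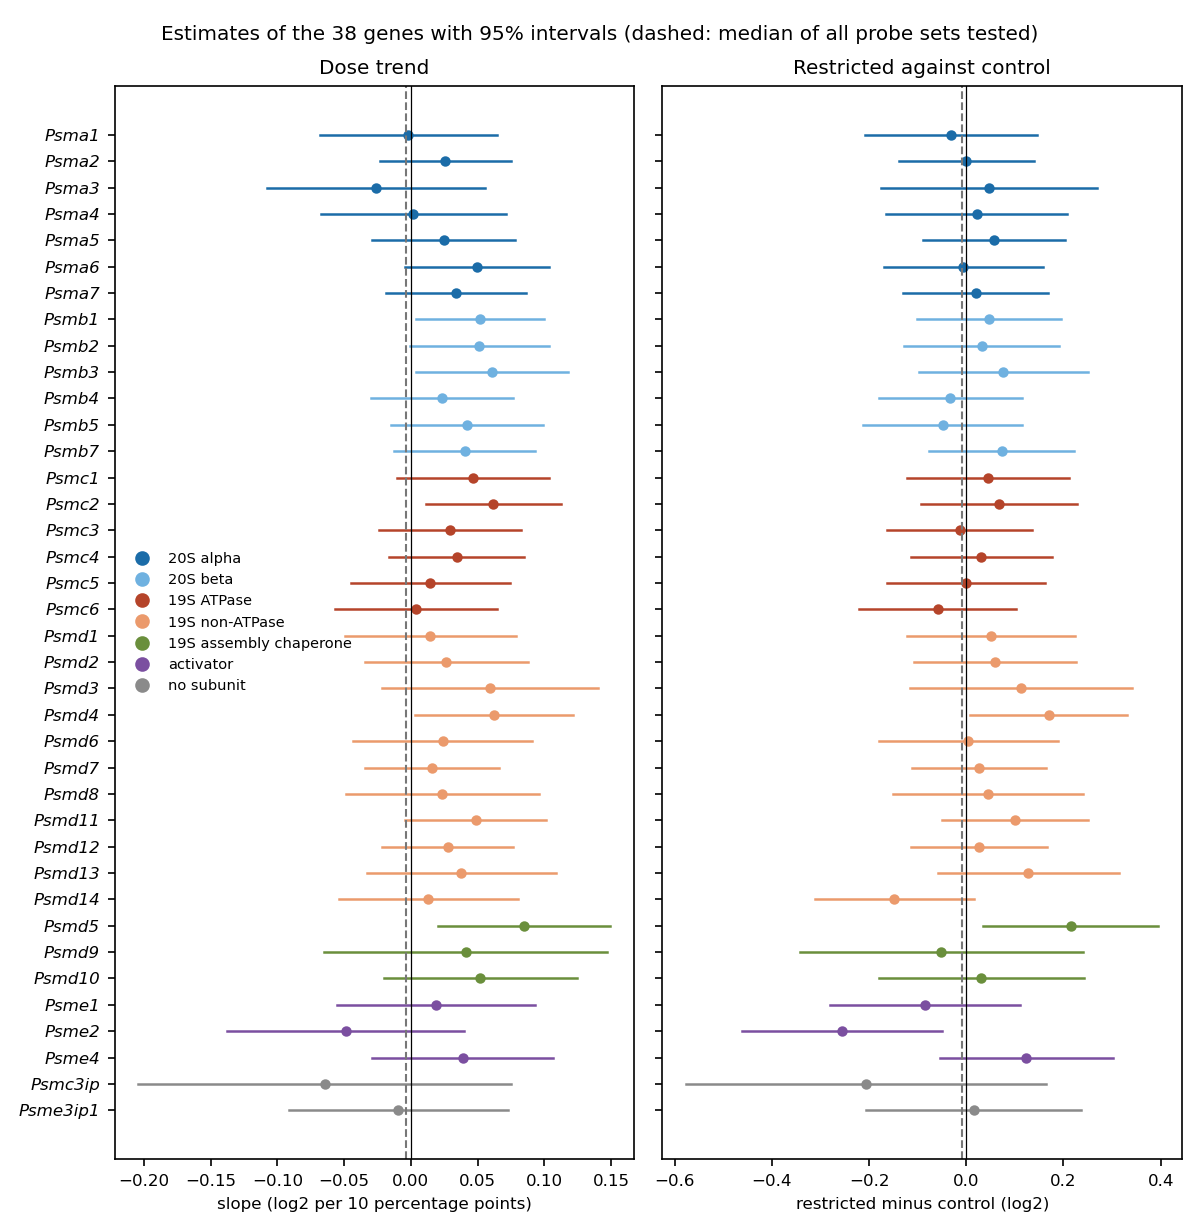
Estimates for each of the 38 genes with 95% intervals from limma, coloured by role: left, the slope of log2 signal per 10 percentage points of restriction; right, the mean of restricted arrays minus control arrays in log2. Most slopes lie to the right of 0, their median being 0.028, but 33 of the 38 intervals include 0.

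Core and regulatory particle are set side by side without a test. The median slope was 0.034 over the 13 core subunits and 0.027 over the 17 regulatory subunits, a difference of 0.0063. With 1 array left out this difference lay between −0.0063 and 0.011, and it turned negative without the 1-month 30% CR array (−0.0063) and without the 1-week control (−0.0032). Within the core the beta subunits had a median of 0.046 and the alpha subunits 0.024. Within the regulatory particle the ATPases had a median of 0.032 and the non-ATPase subunits 0.027. The 3 assembly chaperones had the highest median of any role, 0.052, and the 3 activators the lowest of the true proteasome roles, 0.019. Leaving out 1 array at a time kept the number of positive slopes between 31 and 36 and the median between 0.023 and 0.040.

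Ratios taken within a duration, restricted over control, show the shape of this trend. At 1 month the median log2 ratio of the 38 members was 0.017, 0.076, 0.097 and 0.11 at 5, 10, 20 and 30% CR. At 1 week it was −0.063, −0.024, 0.00025 and 0.031 at the same levels. In both durations the median was thus lowest at 5% CR and highest at 30% CR, while the medians of all probe sets tested stayed between −0.016 and 0.017. The 4 ratios of a duration share 1 control array, so the position of a whole row of ratios moves with that array, and the order of the levels within a duration does not. At 1 week the order rests on the titles, which the descriptions of 2 arrays contradict. The median log2 signal of the members was 9.88 on the array titled control and 9.74 on that titled 5% CR. It was 9.83 at both 10 and 20% CR. With the 2 arrays exchanged, 5% CR would not be lowest at 1 week by this measure.

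**Figure D2:**
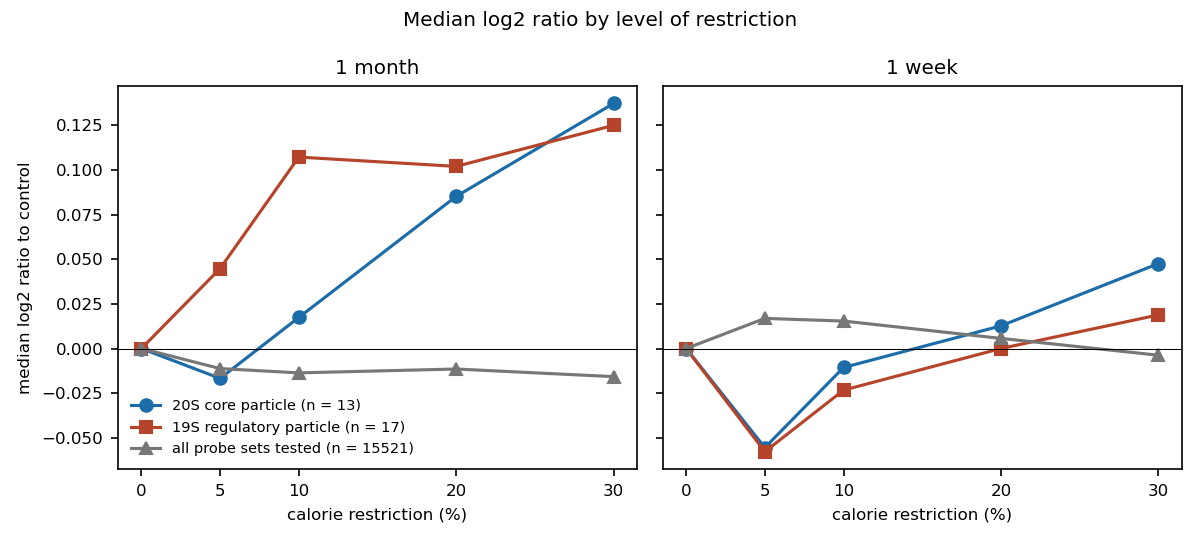
Horizontal axis, restriction in percent; vertical axis, median log2 ratio to control, for the core particle, the regulatory particle and all probe sets tested, at 1 month (left) and 1 week (right). At 30% CR both particles stand above the grey line of all probe sets in both durations, with 0.14 for the core and 0.13 for the regulatory particle at 1 month.

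Fitted within 1 duration, the median slope of the members was 0.043 at 1 month, with 36 of 38 above 0, and 0.020 at 1 week, with 27 of 38 above 0. Both slopes were above 0 for 26 members, against 27.8% of all probe sets tested. The difference between the slopes (dose by duration, limma) passed for 0 members and for 0% of all probe sets, and its median over the members was 0.025, with 29 of 38 above 0. After median centring this median was −0.0029 with 17 of 38 above 0, and with 1 array left out it lay between 0.010 and 0.040. At an unadjusted p under 0.05, 2 members had a steeper slope at 1 month, Psma4 (0.17, adjusted p = 0.78) and Psmd2 (0.11, adjusted p = 0.812). Of the 15521 probe sets tested, 491 had a higher and 449 a lower slope at 1 month at that limit. Over the 8 restricted arrays alone, without the controls, the median slope was 0.039 and 34 of 38 slopes were above 0.

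The medians of both particles at each level, again without a test, were as follows. At 1 month and 5% CR the median ratio was −0.017 for the core and 0.045 for the regulatory particle, at 10% CR it was 0.017 and 0.11, at 20% CR 0.085 and 0.10, and at 30% CR 0.14 and 0.13. At 1 week the medians were −0.056 for the core and −0.058 for the regulatory particle at 5% CR, and 0.048 and 0.019 at 30% CR. These are single arrays, and the ranges of both particles overlapped at every level.

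At 30% CR for 1 month, 5 members had a log2 ratio of at least 0.25 (Psmc2, Psmd3, Psmd4, Psmd5 and Psmd8) and 1 of at most −0.25 (Psmc3ip). Of all probe sets tested, 20.2% and 22.9% lay past these limits. At 30% CR for 1 week, 0 members had a ratio of at least 0.25 and 2 of at most −0.25 (Psme2 and Psmc3ip), against 21.2% and 23.3% of all probe sets. The members spread less from array to array than the typical, dimmer probe set. Their median range over the 5 arrays of a duration was 0.21 at 1 month and 0.23 at 1 week, against 0.43 and 0.46 for all probe sets tested.

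**Figure D3:**
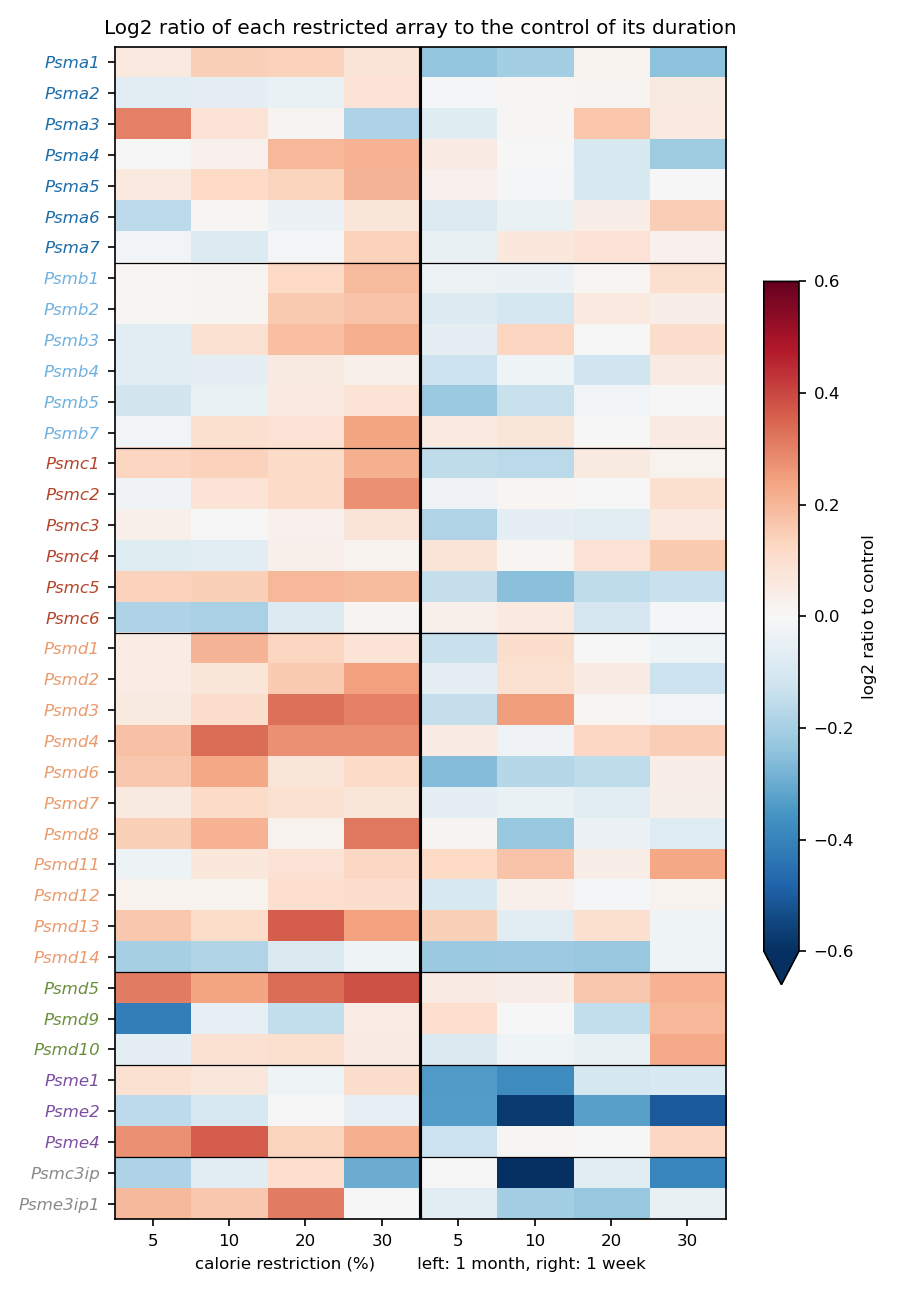
Log2 ratio of each restricted array to the control of its duration for the 38 genes (rows, in order of role) at 5, 10, 20 and 30% CR (columns), with 1 month on the left and 1 week on the right; red is above and blue below the control, and the arrow marks 1 value below the scale (Psmc3ip, −0.74). Most genes are pale at every level, the right block is mixed, and red cells are most frequent at 20 and 30% CR after 1 month.

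Signs across the 8 ratios were counted for each member on its brightest probe set. Only Psmd5 was above its controls in all 8, where 8.2% of all probe sets were, and 2 members, Psmd14 and Psme2, were below in all 8, where 8.36% were. The highest ratio was −0.024 for Psmd14 and only −0.00046 for Psme2. A dimmer tested probe set of Psmd11 and one of Psme4 were also above the controls in all 8, with lowest ratios of 0.019 and 0.064. All 4 ratios of 1 month were above 0 for 19 members, against 24.4% of all probe sets, and these 19 held 12 of the 17 regulatory subunits and 4 of the 13 core subunits. All 4 ratios of 1 week were above 0 for 4 members (Psmb7, Psmc4, Psmd5 and Psmd11), against 23.9%. The 1-month count rests on 1 control array.

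Setting all restricted arrays against both controls asked for a change that did not depend on the level. With duration as a factor, 0 of 38 members passed (limma), while 1.13% of all probe sets rose and 0.876% fell. At an unadjusted p under 0.05, Psmd4 and Psmd5 had positive estimates and Psme2 a negative one, against 1212 positive and 997 negative among the 15521 probe sets tested. Estimates were above 0 for 26 of the 38, against 48.3% of all probe sets, with a median of 0.028 against −0.0082. The median was 0.021 for the core and 0.045 for the regulatory particle, a difference of −0.023. With 1 array left out this difference lay between −0.032 and 0.023, being 0.023 without the 1-month control and −0.00055 without the 1-month 10% CR array. The medians turned on the control arrays: without the 1-month control the median of the members was −0.012 with 17 of 38 above 0, without the 1-week control it was 0.086, and with the 2 conflicting 1-week arrays exchanged it was 0.074 with 31 of 38 above 0.

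Psmd5 encodes a chaperone that holds ATPases of the regulatory particle before they join the core. Its signal at 1 month was 203 on the control and 251, 239, 256 and 264 at 5, 10, 20 and 30% CR, and at 1 week 262 on the control and 271, 269, 293 and 303. Every restricted array was above its control, and the highest signal of each duration was at 30% CR. The mean of the restricted arrays was 0.21 ± 0.085 (SE) above the controls in log2, or 1.16-fold, and the slope was 0.085 ± 0.030, but neither passed (adjusted p = 0.248 and 0.191, limma; unadjusted p = 0.0229 and 0.0133). The other chaperones, Psmd10 (gankyrin) and Psmd9, had slopes of 0.052 ± 0.034 and 0.041 ± 0.050, and Psmd9 was the dimmest of the 3, with signals of 60.8 to 112.5. A dimmer probe set of Psmd9, with a mean signal of 20.1, had a slope of −0.17 ± 0.11 (adjusted p = 0.519, limma).

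Psmd4 is a ubiquitin receptor of the regulatory particle. Its signal at 1 month was 539 on the control and 609, 680, 653 and 651 with rising restriction, and at 1 week 698 on the control and 722, 687, 762 and 773. The 1-month restricted arrays were all above their control, and at 1 week only the 10% CR array was below. The restricted arrays were 0.17 ± 0.075 above the controls, or 1.12-fold (adjusted p = 0.317, limma), the largest estimate among the 30 subunits of core and regulatory particle.

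Psmd14, the subunit that removes ubiquitin from the substrate, lay on the other side. Its signal was 598, 606, 647 and 674 at 5 to 30% CR at 1 month, against 686 on the control, and 719, 721, 716 and 824 at 1 week, against 838 on the control. All 8 restricted arrays were below their control, by less at 30% CR than at the lower levels, and its slope was 0.013. The estimate of −0.15 ± 0.076 did not pass (adjusted p = 0.405, limma). Its other probe sets that were tested gave −0.15 and −0.037, and their slopes were −0.063 and −0.00083. The former was also below its control in all 8 ratios, while the latter had ratios of −0.13 to 0.051.

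Of the catalytic subunits, Psmb5 had signals of 1801, 1670, 1753, 1878 and 1908 at 0, 5, 10, 20 and 30% CR at 1 month, and 2241, 1920, 2040, 2213 and 2237 at 1 week. By the titles it was lowest at 5% CR in both durations, and at 30% CR it was at 0.083 and −0.0024 from its control in log2. Psmb7, the trypsin-like subunit, had ratios of −0.017 to 0.24 at 1 month and 0.0023 to 0.073 at 1 week, the highest at 30% CR for 1 month. Their slopes were 0.042 ± 0.027 and 0.040 ± 0.025 (adjusted p = 0.523 and 0.502, limma). The probe set that Psmb6 shares with Psmb6l1 had a slope of 0.020 ± 0.028.

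The ATPases Psmc2 and Psmc5 showed different courses. Psmc2 had 2251, 2221, 2386, 2438 and 2720 at 0 to 30% CR at 1 month and 2696, 2653, 2717, 2699 and 2885 at 1 week, so that 30% CR was highest in both durations, and its slope of 0.062 ± 0.024 had an adjusted p of 0.232 (limma). Psmc5 had 1171 on the 1-month control and 1290, 1294, 1344 and 1338 on the restricted arrays, against 1482 on the 1-week control and 1343, 1247, 1334 and 1353 on its restricted arrays. Its 1-month ratios were all above 0 and its 1-week ratios all below, as were those of Psme3ip1 and of 3.47% of all probe sets. The opposite pattern was seen in 0 members and 5.21% of probe sets. The difference between durations, added after the data were seen, was 0.34 ± 0.12 for Psmc5 (adjusted p = 0.574, limma) and passed for 0 members and 0% of probe sets.

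**Figure D4:**
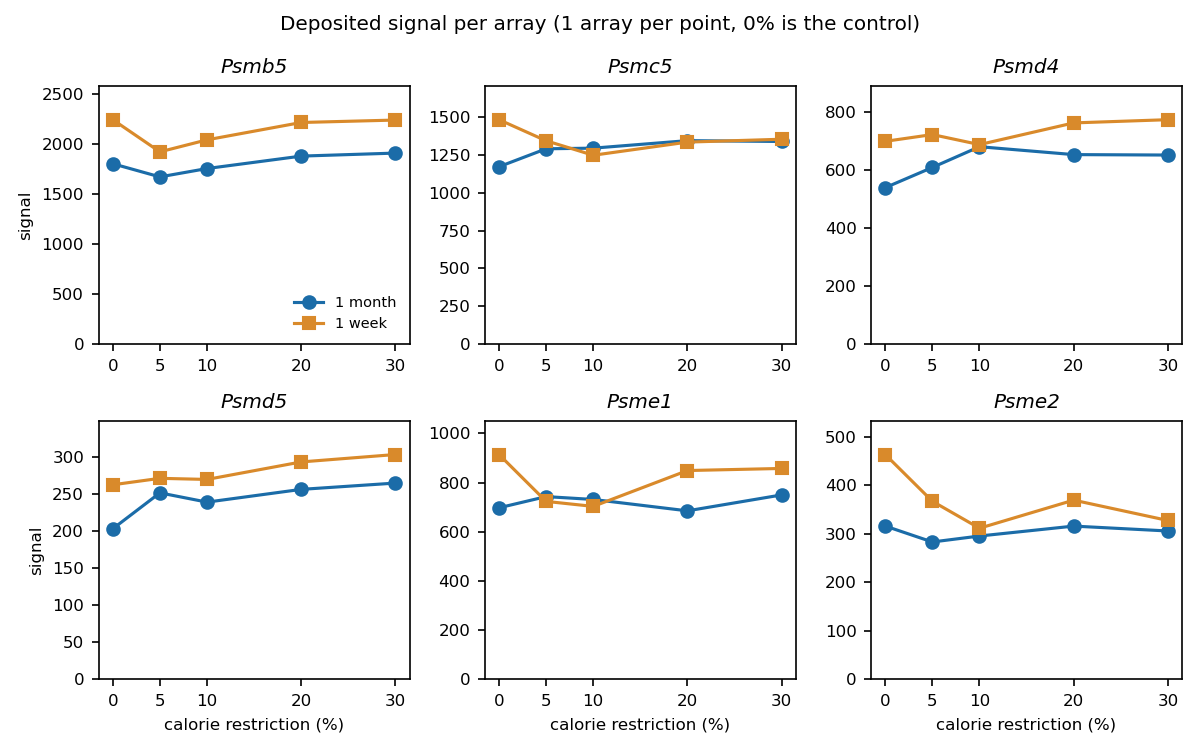
Deposited signal of 6 genes (vertical axis, from 0) against the level of restriction in percent, with 1 array per point, 1 month in blue and 1 week in orange; 0% is the control. Psmd5 stands above its control at every level in both durations, while Psme2 stands below its 1-week control of 464 at every level.

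Of the activators, which open the core without ubiquitin, Psme1 and Psme2 were below their control on all 4 restricted arrays at 1 week. This was not particular to them: Psmb5, Psmc5, Psmd14, Psmc3ip and Psme3ip1 were above their control on 0 of these 4 arrays. Psme4 was above its control on all 4 at 1 month, as were 19 members in all and 24.4% of all probe sets. Psme1 and Psme2 encode the subunits of PA28, which interferon induces and which serves antigen presentation. Psme2 had 283, 295, 316 and 306 at 5 to 30% CR at 1 month, against 316 on the control, and 367, 312, 370 and 328 at 1 week, against 464 on the control. The 1-week control was above all other arrays, and at 1 month the groups differed by at most 0.16 in log2. Its estimate of −0.26 ± 0.096, or 0.838-fold, did not pass (adjusted p = 0.217, limma; unadjusted p = 0.0182). Psme1 had ratios of −0.026 to 0.10 at 1 month and of −0.38 to −0.092 at 1 week.

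Other interferon-linked and leukocyte genes were read beside these. The immunoproteasome subunits Psmb8, Psmb9 and Psmb10 passed in neither restriction comparison. Psmb8 was dim, with 16.0, 17.1, 31.7 and 19 at 1 month, against 13.7 on the control, and 22.1, 27.5, 21.8 and 18.8 at 1 week, against 31.6 on the control. Psmb10 had 60.5, 49.3, 61.3 and 65.6 at 1 month, against 60.4 on the control, and 73.7, 78.3, 84.8 and 72.6 at 1 week, against 91.2 on the control. Psmb8 and Psmb10 were thus also below their control on all 4 restricted arrays at 1 week, while Psmb9 had 58, 39.4, 50.7 and 32.9 there, against 46.5 on the control. The 6 macrophage and leukocyte markers, all measured and none at 0, summed to 545 to 765 on restricted arrays at 1 month, against 518 on the control, and to 559 to 697 on restricted arrays at 1 week, against 550 on the control. The sum was mostly Cd74, which was 297, 376, 285 and 317 on restricted arrays at 1 week, against 314 on the control. Of the 6 markers, Cd68 and Cd163 were above the control on all 4 of these arrays, and C1qa, Csf1r, Ptprc and Cd74 were above it on some and below it on others. Cd163 was dim, with 39.2 to 53.2 on these arrays against 13.3 on the control. It rose for restricted arrays against controls (1.25 ± 0.23, adjusted p = 0.0123, limma), and Cd68, C1qa, Csf1r, Ptprc and Cd74 did not pass. The part of leukocyte RNA in the values of Psme1 and Psme2 was not tested.

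Psme4, the activator PA200, had ratios of 0.13 to 0.36 at 1 month and −0.13 to 0.13 at 1 week on its brightest probe set, and an estimate of 0.12 ± 0.084 (adjusted p = 0.546, limma). Its 2 other probe sets had estimates of 0.34 ± 0.096 and 0.24 ± 0.095, with adjusted p of 0.0886 and 0.254. All 3 were in the same direction and none passed. The 3 probe sets tested for Psmc6 gave slopes of 0.0038, −0.034 and 0.025, and both tested for Psmd11 gave 0.048 and 0.059.

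The list of other genes of the pathway held 38 names, of which 32 were measured and tested. None passed in the dose trend. Nfe2l2, which encodes the oxidative stress factor NRF2, was the only one to pass for restricted arrays against controls, where 1.13% of all probe sets rose. Its signal was 336, 294, 338 and 353 at 5 to 30% CR at 1 month, against 241 on the control, and 297, 303, 343 and 333 at 1 week, against 230 on the control. All 8 of its ratios were thus above 0, as were those of 8.2% of all probe sets. It rose by 0.46 ± 0.088 in log2 (adjusted p = 0.0137, limma). The call was lost without the 1-week control (0.45, adjusted p = 0.154), without the 1-month control (0.47, adjusted p = 0.131) and with the 2 conflicting 1-week arrays exchanged (0.23, adjusted p = 0.606).

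The 2 muscle ubiquitin ligases best known from atrophy are given, a choice made after their values were seen. Neither passed in the dose trend or in restricted against control. Trim63, which encodes MuRF1, had 994, 1195, 1280 and 1697 at 5 to 30% CR at 1 month, against 1091 on the control, and 1170, 1047, 1084 and 1278 at 1 week, against 1222 on the control. It was highest at 30% CR in both durations, and its slope of 0.12 ± 0.043 did not pass (adjusted p = 0.183, limma). Fbxo32, which encodes atrogin-1, had 86.5, 93.8, 98.1 and 116 at 1 month, against 80.8 on the control, and 57.4, 88.7, 57.7 and 72.1 at 1 week, against 65.1 on the control. Its slope was 0.093 ± 0.059 (adjusted p = 0.516, limma). Between durations, on the signals as deposited, Fbxo32 was 0.49 ± 0.13 higher at 1 month (adjusted p = 0.00961, limma). It was the 1 gene of the 32 tested on the pathway list that rose with duration, while 14 fell. Of all probe sets, 1.13% rose and 32.8% fell on these signals, which were not on 1 scale between durations.

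Duration gave the largest estimates of the proteasome genes as deposited. Setting 1 month against 1 week, with restriction as a covariate, 21 of 38 members fell and 0 rose (limma), but at most 1 fell under each of 3 other scalings of the arrays. Of all probe sets, 32.8% fell and 1.13% rose as deposited. The median of the members was −0.20, against −0.21 for all probe sets tested. With all arrays scaled to 1 trimmed mean, an alternative added after the data were seen, the median was 0.0070 against −0.0065 for all probe sets, 0 members fell and 1 rose, Psmd1 (0.27, adjusted p = 0.0153, limma). The rats were also older at 1 month, and age, time on the diet and the scaling of the arrays cannot be told apart.

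A difference between the medians of roles is not moved by rescaling a whole array, while counts of calls are. As deposited, the core had a median of −0.25 and 10 of its 13 subunits fell. The regulatory particle had a median of −0.16 and 8 of its 17 subunits fell, where 32.8% of all probe sets did. Under each of the other scalings at most 1 member fell. The difference between the medians was −0.082, and −0.060 after quantile normalization. With 1 array left out it lay between −0.11 and −0.050, and it was nearest 0 without the 1-month 5% CR array (−0.050) and without the 1-week 20% CR array (−0.051). Scaled to 1 trimmed mean, the medians were −0.042 for the core and 0.041 for the regulatory particle. The non-ATPase subunits had the highest median, −0.10 as deposited and 0.10 after scaling, and the ATPases −0.20 and 0.0031. The ranges of core and regulatory particle overlapped, and a difference between medians of related genes is given here without a test.

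**Figure D5:**
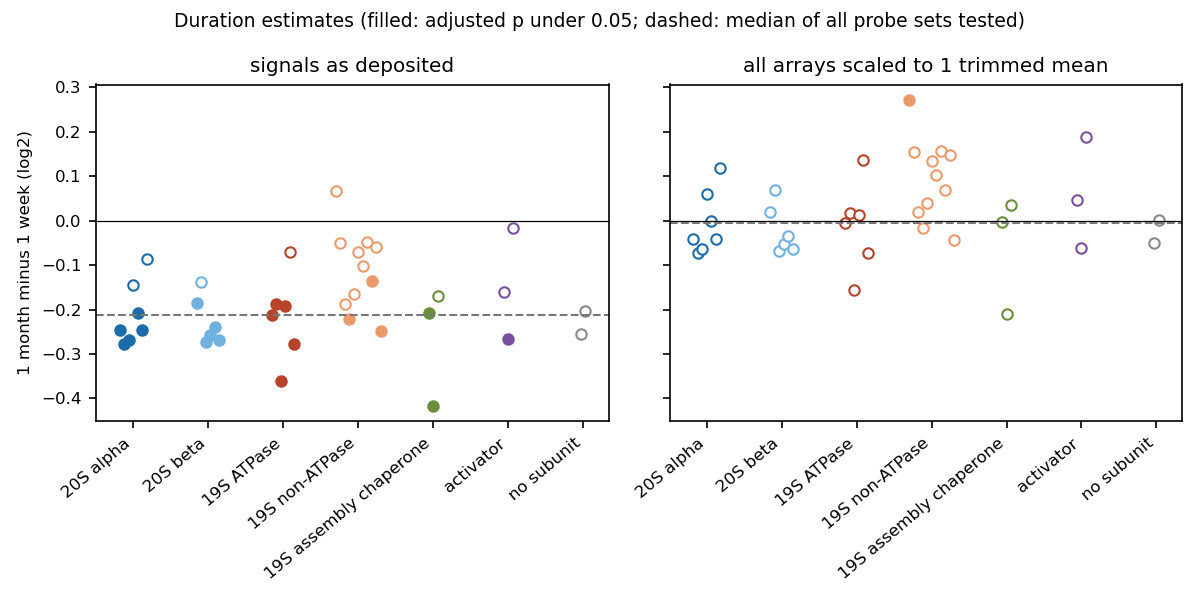
Difference between 1 month and 1 week in log2 (vertical axis) for each gene by role, as deposited (left) and with all arrays scaled to 1 trimmed mean (right); filled points passed an adjusted p of 0.05 and the dashed line is the median of all probe sets tested. On the left 21 points are filled, all below 0, and on the right only Psmd1 is.

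Psmc3, an ATPase of the regulatory particle, had the lowest estimate among core and regulatory subunits. Its deposited signal was 924 to 974 on the 5 arrays of 1 month, against 1104 to 1302 on those of 1 week, which were scaled differently. The estimate was −0.36 ± 0.053 as deposited (adjusted p = 0.000287, limma), −0.16 with all arrays scaled to 1 trimmed mean (adjusted p = 0.0821) and −0.067 after median centring (adjusted p = 0.676). It was the only member that still fell after quantile normalization, by 0.16 (adjusted p = 0.0352). Psmd1 was at the other end, with deposited signals of 361 to 416 at 1 month, against 337 to 399 at 1 week, and an estimate of 0.067 ± 0.064. Psmd9 had the lowest estimate of all 38, −0.42 ± 0.11 (adjusted p = 0.00922), with deposited signals of 60.8 to 83.7 at 1 month, against 88.4 to 112.5 at 1 week, and −0.21 with all arrays scaled to 1 trimmed mean (adjusted p = 0.244, limma).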

How the data were processed

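Signals of 10 arrays of gastrocnemius muscle were used, 1 array per group, each of RNA pooled from 5 rats. The authors deposited linear signal intensities from MAS5, scaled within each array. No detection call was used. The arrays' trimmed mean, without the 2% of signals at either end, was equal within a duration and differed between durations.

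Signals under 0.1 were set to 0.1 and log2 was taken. Of 31099 probe sets, 57 controls were left out, and the tests covered 15521 whose mean signal reached the 50th percentile (17.84). The platform annotation supplied the symbols: 20832 probe sets had 1 gene, 436 several and 9831 none, and 20758 were matched to RefSeq.

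Fits used limma 3.58.1 (lmFit, eBayes with trend) under R 4.3.3, with Benjamini-Hochberg adjustment over all probe sets tested and a threshold of 0.05. The fits were dose trend, restricted against control, duration and dose by duration. Restricted by duration was added after the data were seen. The fits were checked on simulated data, except restricted by duration. Estimates are given ± SE. Ratios were log2 of a restricted array over the control of its duration, and past 0.25 is a description. Nothing says that arrays hold replicates, so p-values measure the spread round the fitted lines.

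Named genes were the members that passed a fit, those with the largest and smallest estimate of their role in the restriction fits, the catalytic subunits and the pathway genes that passed in the restriction fits. Members counted by sign, and Psmc5, Psme1, Psmd1, Trim63 and Fbxo32, were named after their values were seen. The members and lists were chosen with earlier results of these data known. Alternatives were other scalings, filters, variance models, probe set summaries, exchanged arrays and leaving out each array. No count is given adjusted over the members alone.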

Additional observations from a re-analysis of the deposited data

Results flagged for a closer look

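Psmc5 and Psme3ip1 had all 4 restricted arrays above the control at 1 month and all 4 below it at 1 week, as 3.47% of all probe sets did. For Psmc5 the restricted arrays differed from the control by 0.336 more in log2 at 1 month than at 1 week (adjusted p = 0.574, limma), and for Psme3ip1 by 0.304 more (adjusted p = 0.797, limma). Neither difference passed, and with the 1-week 5% CR and control arrays exchanged the value for Psmc5 was 0.16 (adjusted p = 0.951).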

How the results depend on the processing

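No member was called for the dose trend, for restricted against control or for dose by duration under any alternative, including each array left out in turn. Between 30 and 36 slopes were positive under every alternative. The dose trend's median stayed between 0.023 and 0.040 with 1 array left out, and that of restricted against control between −0.012 and 0.086. The median of dose by duration was −0.0029 after median centring, against 0.025, and 0.010 to 0.040 with 1 array left out. Counts of calls moved for duration alone. With 1 array left out, 17 to 22 members fell, and the median was −0.21 to −0.18. After quantile normalization 1 member fell (Psmc3) and 2 rose (Psma7 and Psmd1), with a median of −3.28e-05. After median centring 0 fell and 2 rose (Psmd1 and Psmd11), with a median of 0.095. After scaling to 1 trimmed mean 0 fell and 1 rose, with a median of 0.0070. The median of all probe sets was 0.012, 0.082 and −0.0065 under these scalings, against −0.21 as deposited.

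Estimates of duration that were called as deposited and turned positive, uncalled, under median centring were those of Psma1 (0.046), Psma2 (0.015), Psma3 (0.025), Psma5 (0.086), Psma6 (0.047), Psmb1 (0.11), Psmb3 (0.019), Psmb4 (0.036), Psmb5 (0.053), Psmb7 (0.025), Psmc1 (0.082), Psmc2 (0.11), Psmc4 (0.10), Psmc6 (0.015), Psmd4 (0.072), Psmd5 (0.084), Psmd12 (0.16), Psmd14 (0.045) and Psme2 (0.027). Under quantile normalization and under 1 trimmed mean the same was true of Psmb1 (0.054 and 0.020), Psmc2 (0.056 and 0.018), Psmc4 (0.011 and 0.013) and Psmd12 (0.051 and 0.068). Median centring and scaling to 1 trimmed mean shift whole arrays by construction, and quantile normalization also changes the differences between genes of an array.

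The rise of Nfe2l2 was also lost with median centring (adjusted p = 0.0685) and without the variance trend (adjusted p = 0.0732). Over its alternatives for restricted against control, its estimate ranged from 0.23 to 0.49. Of 1475 recomputed estimates of named genes, 94 lost a call, 4 gained one and 58 uncalled ones changed sign. No paired analysis was possible because each group has 1 array and so no replicate number to pair, but with the level of restriction as a block for duration 20 members fell. With 1 pool per group the spread between rats is not seen, and signal over background was not recorded by probe set.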
